A study of Mus musculus with 10 samples.

Results

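Myelin genes were compared between Arid1b+/– mice (HT) and wild-type mice (WT) in RNA sequencing values of the prefrontal cortex at postnatal day 10. The members were taken by gene symbol and comprised Mbp, Mobp, Mal, Cldn11, Opalin, Cnp, Mag, Mog and Myrf. All 9 were found among the 18216 genes of the deposited table, and all 9 passed the filter on low values (a mean of at least 10 over the 10 mice), as did 16781 genes in total. There were 10 male C57BL/6N mice in all, 5 per genotype, each giving 1 library. HT mice carried 1 intact copy of Arid1b, which encodes a subunit of a chromatin-remodelling complex, and 1 copy with a protein-truncating germline mutation made by targeting exon 5 with a Cas9 nickase, so that the mutation was not limited to a cell type. WT mice had both copies intact. The study bred its mice from HT fathers and WT mothers, the labels name no treatment, and they do not tie a mouse to a litter, so p-values measure only the spread between these 10 mice.

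Oligodendrocytes wrap axons in myelin, a stack of membrane that insulates the axon and speeds conduction. In the rodent forebrain they arise from dividing precursors, and the cortex gains most of its myelin after birth, so that only a part of the lineage makes myelin genes at this age. The transcription factor MYRF is made when precursors commit, and it drives many genes of the mature cell. The other members encode parts of the sheath. MBP and MOBP hold the cytoplasmic faces of compact myelin together, MAL and CLDN11 are membrane-spanning proteins of rafts and of myelin tight junctions, and Opalin is a membrane protein of central nervous system oligodendrocytes. CNP lies in the non-compacted, cytoplasm-filled parts of the sheath, MAG faces the axon, and MOG sits on the outermost surface.

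Promoters of members are shown where they hold letters that were searched for, since the members moved together across mice. RefSeq promoters (build GRCm38.p6) were matched by symbol for Mal, Cldn11, Mag, Mobp, Cnp, Mog and Opalin, 7 of the 9 members. Within the 250 bases upstream of each start, on both strands, the MYRF core CTGGCAC occurred for 2 of the 7 genes, Cnp and Mag. Counted by RefSeq entry, of which these genes have 9, it was in 3 of 9, against 4.19% of the 32851 entries of all genes. The SOX-type core ACAAAG occurred for 4 of the 7, namely Cnp, Mag, Mobp and Opalin, or 5 of 9 entries, against 16.5% of all entries. A second SOX-type core, ACAAT, occurred for 0 of the 7 and in 27.7% of all promoters. The E-box CAGCTG occurred for 0 of the 7 and in 13.0%, and the E-box written CATATG for 0 and in 3.46%. The letters of the TATA box, searched as TATAAA, occurred for 0 and in 12.4%. For each of these 4 genes 1 matching promoter is given 5′ to 3′ in the direction of the gene, from 250 to 51 bases upstream of the start, with every match in capitals (CTTTGT is ACAAAG on the other strand). They lie at chr11:100574689-100574888 (plus strand, Cnp), chr7:30914914-30915113 (minus strand, Mag), chr9:120149492-120149691 (plus strand, Mobp) and chr19:41077164-41077363 (minus strand, Opalin).
Cnp: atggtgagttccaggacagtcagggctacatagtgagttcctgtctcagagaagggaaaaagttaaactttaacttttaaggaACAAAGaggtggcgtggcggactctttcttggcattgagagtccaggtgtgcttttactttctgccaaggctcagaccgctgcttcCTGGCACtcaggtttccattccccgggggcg
Mag: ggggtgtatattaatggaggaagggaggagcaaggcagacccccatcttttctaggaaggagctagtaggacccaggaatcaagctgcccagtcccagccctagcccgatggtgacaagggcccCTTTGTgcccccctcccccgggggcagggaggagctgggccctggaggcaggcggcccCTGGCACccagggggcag
Mobp: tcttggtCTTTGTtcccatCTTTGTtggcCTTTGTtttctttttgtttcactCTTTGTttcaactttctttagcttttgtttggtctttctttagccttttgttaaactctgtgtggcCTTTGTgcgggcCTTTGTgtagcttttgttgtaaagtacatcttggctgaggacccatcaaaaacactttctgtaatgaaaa
Opalin: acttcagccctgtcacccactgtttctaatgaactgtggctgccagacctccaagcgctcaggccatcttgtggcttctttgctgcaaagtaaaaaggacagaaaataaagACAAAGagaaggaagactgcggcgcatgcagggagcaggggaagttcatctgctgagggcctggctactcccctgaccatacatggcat
Mobp held 6 matches to the SOX-type core, all on the other strand, between 243 and 120 bases upstream. Cnp and Mag, in the entries shown, each held 1 match to both cores, with the MYRF core 81 and 68 bases upstream. Mag has 3 entries in the RefSeq table, and a second one, which overlaps the entry shown, holds the same letters, 67 (SOX-type core) and 9 (MYRF core) bases upstream of its own start. The counts by entry therefore include each of these Mag matches 2 times. Motif matches are letters in a window and were not measured as bound sites.

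The targeted gene was read first as a check on the labels. In HT the normalised count of Arid1b averaged 1894 ± 86.6 (SD, n = 5), and no HT mouse reached the lowest WT mouse. The WT average was 2842 ± 142 (SD, n = 5). Correlations between pairs of mice on the log2 scale ran from 0.982 to 0.989. Transcripts of the mitochondrial genome took 8.43% of the normalised counts in HT2 and between 5.15% and 6.76% in the others. Sequencing depth is unknown, since the deposited values had been scaled by the authors, and precision was read only from the spread between mice.

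None of the myelin genes passed the test for genotype, although the mean was higher in HT for every one of them. The HT mean was between 119% (Cnp) and 139% (Opalin) of the WT mean. By limma on log2(value + 1), 0 of the 9 had an adjusted p under 0.05 and 0 had an unadjusted p under 0.05, where 0.0179% and 9.23% of all tested genes did. The log2 fold change (HT minus WT) was above 0 for 9 of 9, against 48.8% of all tested genes, and its median was 0.39 beside -0.00 over all tested genes. HT and WT values overlapped for 9 of 9, while 1.62% of all tested genes did not overlap. The members are not independent of each other, since their values moved together across mice. In bulk tissue, fewer oligodendrocytes and less RNA per oligodendrocyte cannot be told apart.

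Mbp and Mobp encode the adhesive proteins of compact myelin. Mbp (ENSMUSG00000041607, GRCm38 chromosome 18, 82475146 to 82585637, plus strand) had normalised counts of 40313, 42069, 43832, 42784 and 29713 in HT1 to HT5. In WT1 to WT5 the counts of Mbp were 38572, 45641, 16202, 27604 and 26330. The highest value of all belonged to WT2 and the lowest to WT3, so the WT mice spanned the whole range of the HT mice. Its log2 fold change was 0.44 (SE 0.22, 95% confidence interval -0.03 to 0.90, limma adjusted p 0.55), with group means of 39742 ± 5751 in HT and 30869.7 ± 11445 in WT (SD, n = 5).

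Mobp (ENSMUSG00000032517, chromosome 9, 120149707 to 120181484, plus strand) had its lowest value in WT3 and its highest in WT2, as Mbp did. Its counts were 6146, 6198, 7346, 7242 and 4458 in HT1 to HT5, and 6658, 7954, 2479, 4281 and 4271 in WT1 to WT5. HT5, WT4 and WT5 lay close together, WT3 lay far below them, and the remaining 6 mice started at 6146. The log2 fold change was 0.38 (SE 0.25, interval -0.15 to 0.92, limma adjusted p 0.62), with group means of 6278 ± 1163 in HT and 5129 ± 2168 in WT (SD, n = 5).

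Mal, Cldn11 and Opalin encode membrane proteins. Mal (ENSMUSG00000027375, chromosome 2, 127633226 to 127656695, minus strand), a raft proteolipid that takes part in sorting proteins to the membrane, had counts of 924, 840, 994, 1063 and 818 in HT1 to HT5. The WT counts of Mal were 878, 1113, 323, 553 and 621 in the same order. Each HT mouse exceeded the WT mean of 698, but WT1 lay among the HT mice and WT2 above all of them. Its log2 fold change was 0.52 (SE 0.24, interval -0.00 to 1.05, limma adjusted p 0.54), with group means of 928 ± 103 in HT and 698 ± 305 in WT (SD, n = 5).

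Cldn11 (ENSMUSG00000037625, chromosome 3, 31149920 to 31164324, plus strand), the claudin that seals myelin, had counts of 1979, 1970, 2274, 2215 and 1527 in HT1 to HT5 and of 1919, 2329, 867, 1447 and 1497 in WT1 to WT5. Its log2 fold change was 0.37 (SE 0.20, interval -0.07 to 0.80, limma adjusted p 0.58), with group means of 1993 ± 294 in HT and 1612 ± 549 in WT (SD, n = 5). Opalin (ENSMUSG00000050121, chromosome 19, 41061710 to 41077113, minus strand) had the lowest counts of the 9, at 120, 116, 150, 110 and 68.6 in HT1 to HT5 and 108, 119, 38.8, 72.4 and 68.1 in WT1 to WT5. HT5 and WT5 had nearly the same value of Opalin, so that even the gene with the largest ratio of means was not separated by genotype. The log2 fold change of Opalin was 0.53 (SE 0.28, interval -0.07 to 1.12, limma adjusted p 0.57), with group means of 113 ± 29.3 in HT and 81.3 ± 32.4 in WT (SD, n = 5).

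Among the proteins of the non-compact sheath and its surfaces, Cnp (ENSMUSG00000006782, chromosome 11, 100574904 to 100591729, plus strand) varied least. Its counts were 6292, 6581, 6881, 6778 and 5729 in HT1 to HT5 and 6636, 7098, 3572, 5080 and 4771 in WT1 to WT5. The log2 fold change of Cnp was 0.29 (SE 0.15, interval -0.02 to 0.60, limma adjusted p 0.56), with group means of 6452 ± 463 in HT and 5432 ± 1436 in WT (SD, n = 5). Mag (ENSMUSG00000036634, chromosome 7, 30899176 to 30914873, minus strand), a sialic acid-binding lectin of the axon-facing membrane, had counts of 2767, 2408, 3476, 3124 and 1995 in HT1 to HT5. In WT1 to WT5 its counts were 3045, 3366, 1012, 2020 and 1762. For this gene HT5 lay just below WT4, and the log2 fold change was 0.39 (SE 0.26, interval -0.17 to 0.96, limma adjusted p 0.63), with group means of 2754 ± 582 in HT and 2241 ± 962 in WT (SD, n = 5).

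Mog (ENSMUSG00000076439, chromosome 17, 37010743 to 37023398, minus strand), which is made late in the lineage, had counts of 596, 525, 723, 711 and 518 in HT1 to HT5 and of 533, 695, 199, 375 and 466 in WT1 to WT5. Each HT mouse exceeded the WT mean of 454, with WT1 and WT2 inside the HT range. Its log2 fold change was 0.54 (SE 0.25, interval -0.00 to 1.08, limma adjusted p 0.54), with group means of 615 ± 98.3 in HT and 454 ± 184 in WT (SD, n = 5). Myrf (ENSMUSG00000036098, chromosome 19, 10208272 to 10240748, minus strand), the only transcription factor of the group, had counts of 923, 961, 1230, 984 and 866 in HT1 to HT5 and of 1038, 1007, 519, 757 and 767 in WT1 to WT5. The log2 fold change of Myrf was 0.31 (SE 0.16, interval -0.03 to 0.65, limma adjusted p 0.56), with group means of 993 ± 140.0 in HT and 818 ± 212 in WT (SD, n = 5). On the fold scale the intervals of the 9 genes reached from 0.89 (Mag) to 2.18 (Opalin), so a doubling was within the interval for Mal, Mog and Opalin and outside it for the other 6.

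**Figure D1:**
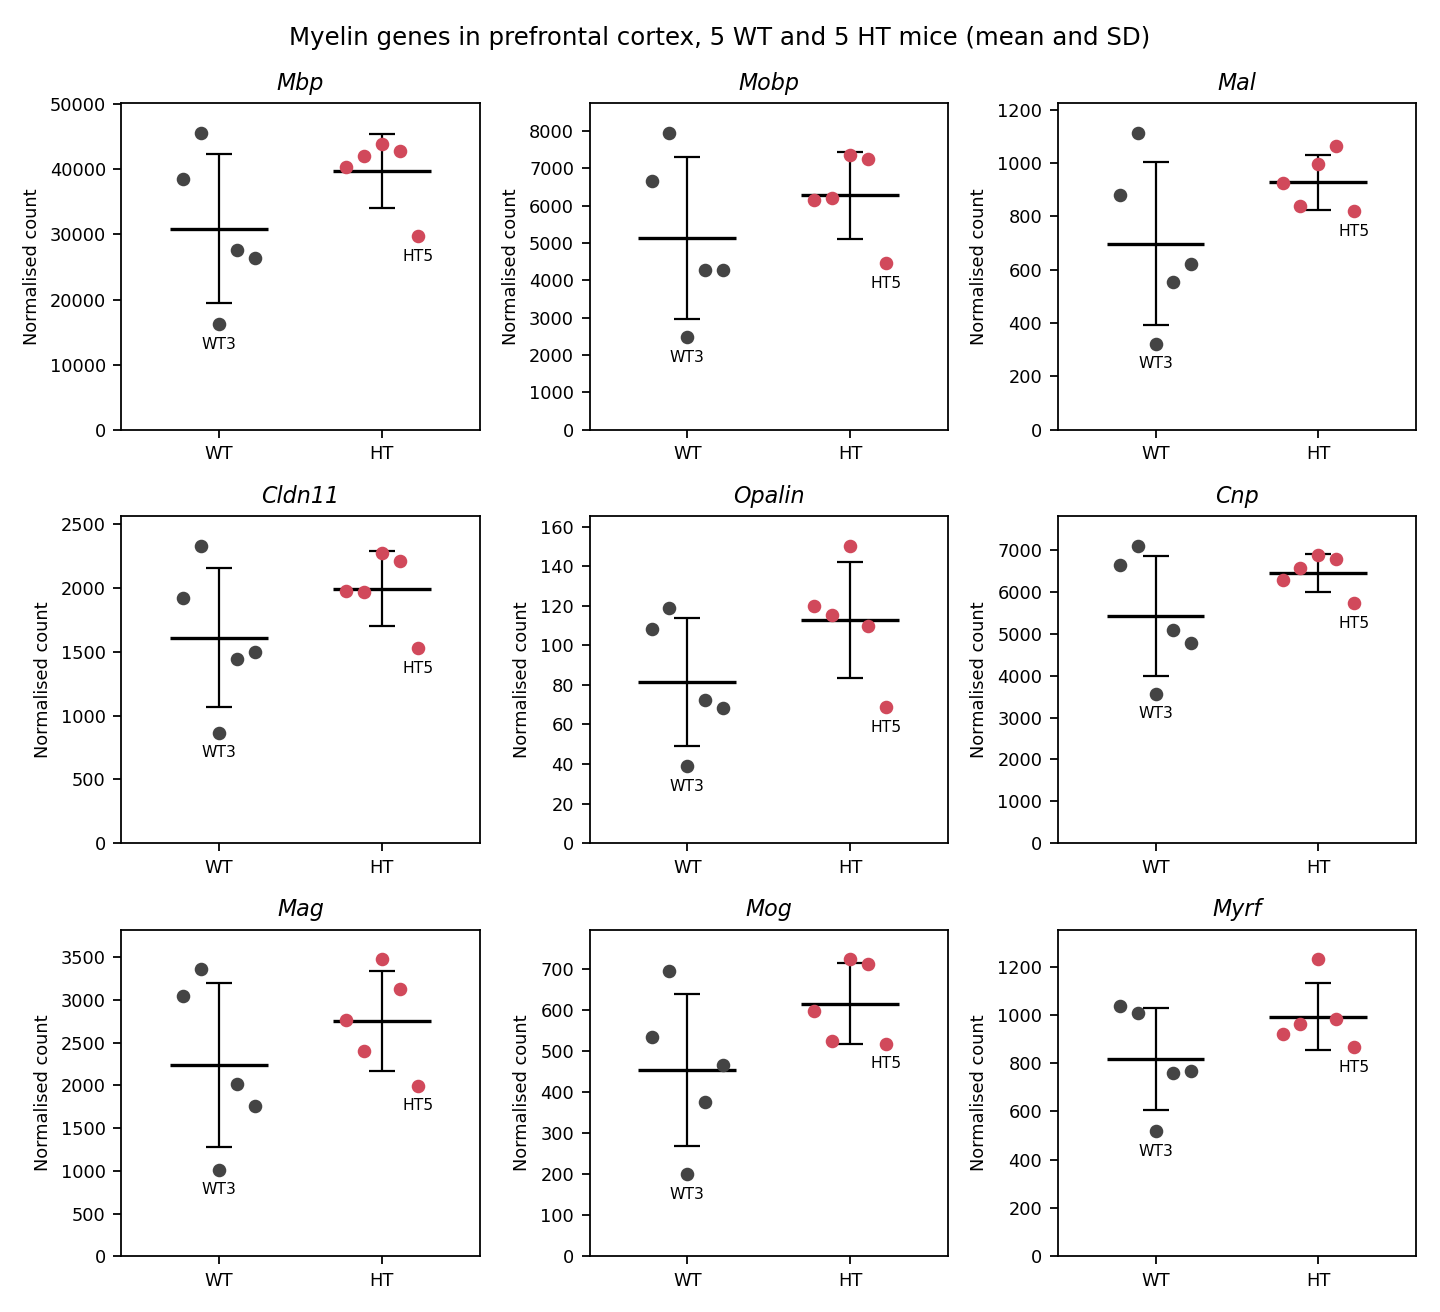
Normalised counts of the 9 myelin genes, with 1 panel per gene, 1 point per mouse (WT dark, HT red), a horizontal line at the group mean and bars of 1 SD (n = 5). WT3 is the lowest point in every panel, HT5 is the lowest HT mouse in every panel, and the groups overlap in every panel.

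The spread was a property of mice rather than of single genes. WT3 had the lowest value of the 10 mice for 9 of 9 members, against 11.7% of all tested genes. The 4 lowest mice were WT3, WT4, WT5 and HT5 for 9 of 9 members, which held for 0.667% of all tested genes (this set of mice was picked after the values were seen). Across the 36 pairs of members, Pearson's r of log2 values over the 10 mice ran from 0.91 to 0.99, with a median of 0.96. With the group means removed the median was still 0.96, and without WT3 it was 0.91, with a lowest pair of 0.78. These correlations share libraries and scaling and are given as a description.

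The spread was also wide beside other genes. The SD within groups on the log2 scale was 0.54 for Mag, 0.53 for Opalin and 0.51 for Mobp and Mog, and between 88.4% and 94.0% of all tested genes had a smaller SD than Mbp, Mobp, Mal, Cldn11, Opalin, Mag or Mog. Cnp (0.29) and Myrf (0.32) were steadier, with 78.4% and 80.7% of genes below them. With all mice included, WT mice varied more than HT mice for every member. The highest WT value was between 1.99 times (Cnp) and 3.48 times (Mog) the lowest, whereas in HT the ratio ran from 1.20 (Cnp) to 2.19 (Opalin). The lowest WT value was that of WT3 for each member. Without WT3 the WT range was narrower than the HT range for Opalin (68.1 to 119 against 68.6 to 150) and Myrf (757 to 1038 against 866 to 1230). For the rest of the members it was still wider than in HT. The difference in spread between WT and HT was not tested.

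Members differed in how far they followed the shared rise and fall. WT3 held 38.6% of the mean of the other WT mice for Mog, 39.7% for Mag, 40.8% for Mal, 42.2% for Opalin and 42.8% for Mobp. The values were 46.9% for Mbp and 48.2% for Cldn11, and 58.1% for Myrf and 60.6% for Cnp. Over all 10 mice, the slope of each gene on the mean of the other 8 (log2 on log2) gave a like order, from 1.20 for Opalin, 1.17 for Mag, 1.16 for Mog and 1.14 for Mal down to 0.67 for Myrf and 0.63 for Cnp. Without WT3 the slopes of Cnp (0.64) and Myrf (0.64) were still the lowest, while that of Mog fell below 1, to 0.95. These encode the lineage transcription factor and the enzyme of non-compact myelin.

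Levels between genes were compared per kilobase of exon, using the summed exonic length of each gene in GENCODE M21. Mbp led with 4169 ± 1150 normalised counts per kb (SD, n = 10), followed by Cnp at 1633 ± 313, Cldn11 at 964 ± 247, Mobp at 833 ± 255 and Mag at 613 ± 196. Mog (313 ± 95.6) and Mal (293 ± 88.8) were neighbours within their spread, although Mog was the higher in 9 of 10 mice. Myrf stood at 106 ± 22.5 and Opalin at 32.9 ± 11.4. By this measure Mbp exceeded 98.8% of all tested genes, and Opalin exceeded 26.1%. The place of Cldn11 depended on the length used, since with the longest coding transcript Mobp (1736 per kb) stood above Cldn11 (964 per kb) in 10 of 10 mice. By that length the mean of Mag (1026 per kb) was also above that of Cldn11.

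**Figure D2:**
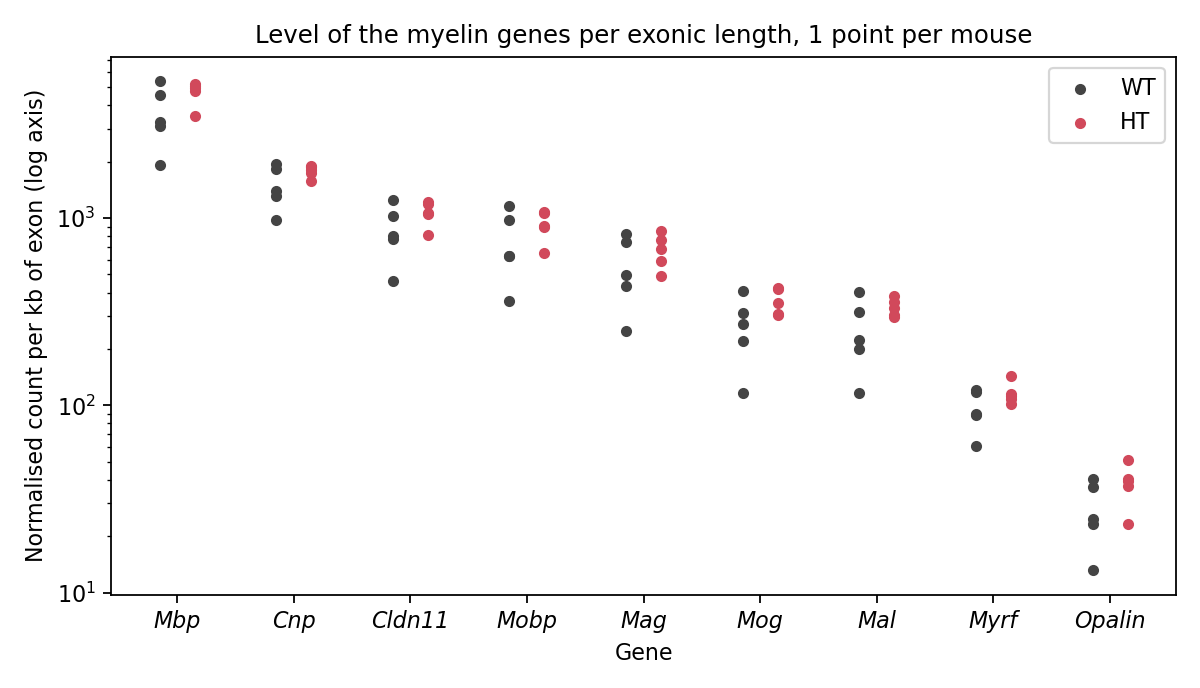
Normalised count per kb of exon for each myelin gene on a log axis, 1 point per mouse (WT dark, HT red). The genes fall from Mbp, with a mean of 4169 per kb, to Opalin, with 32.9 per kb, and WT points reach lower than HT points for every gene.

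Removing 1 mouse moved the difference between genotypes. Without WT3 the median log2 fold change of the members fell from 0.39 to 0.16, the 9 values lay between 0.14 (Mag) and 0.29 (Opalin), and all 9 intervals included 0. Without WT2, the highest WT mouse for every member but Myrf, the median was 0.57 and 9 of 9 had an unadjusted p under 0.05, against 8.36% of all tested genes. Without WT1 this count was 6 of 9 (8.6% of all genes), and without HT5 it was 4 of 9 (6.72% of all genes). In each of these fits 0 of 9 members passed adjustment over all tested genes. The 9 log2 fold changes stayed above 0 in all 10 fits that left out 1 mouse.

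**Figure D3:**
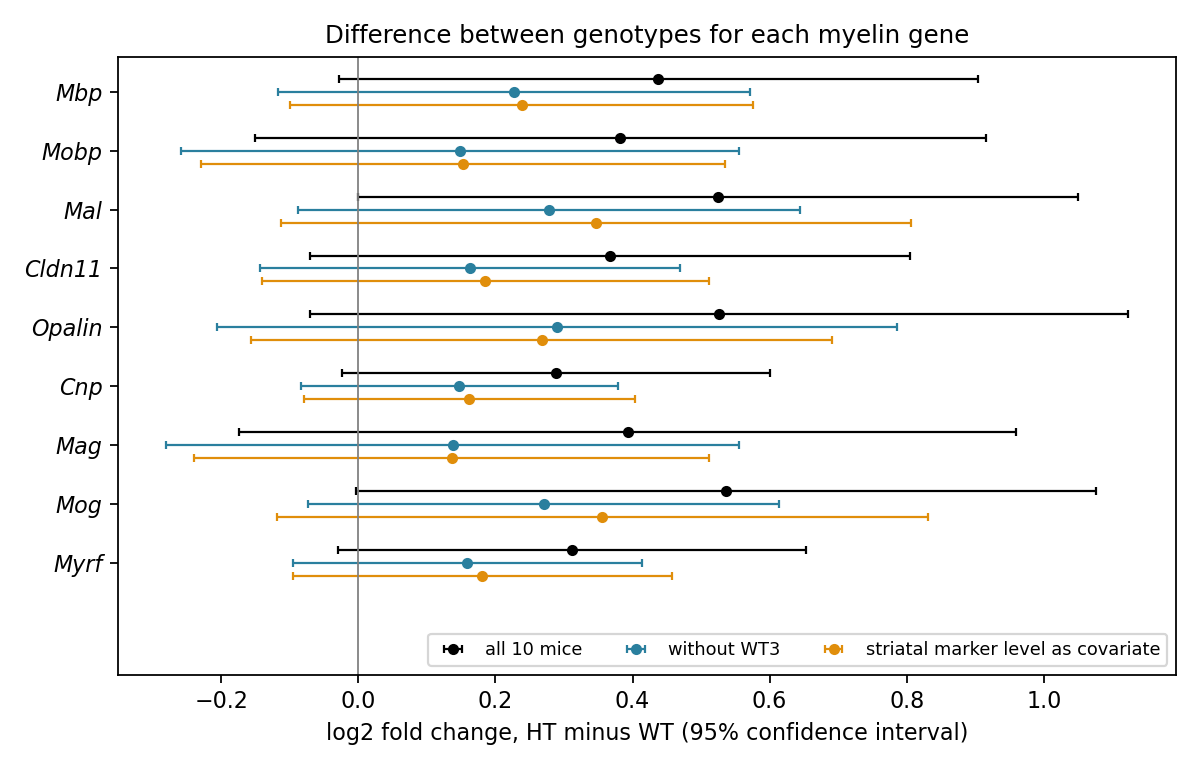
Log2 fold change of each myelin gene (HT minus WT) with its 95% confidence interval, from the fit of all 10 mice (black), without WT3 (blue) and with the striatal marker level as a covariate (orange). Every point lies above 0, every interval includes 0, and the values without WT3 (0.14 to 0.29) are lower than those of all mice (0.29 to 0.54).

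Further genes of mature oligodendrocytes mostly had positive fold changes too. Of 38 further genes of the list that were tested, 37 had a log2 fold change above 0, with a median of 0.19, and 0 passed adjustment (limma). Without WT3 the number was 32 of 38, with a median of 0.09. At an unadjusted p under 0.05, 6 genes were higher and 0 lower in HT, where 4.71% and 4.52% of all tested genes were. These were Plekhb1 (log2 fold change 0.32, SE 0.09, limma adjusted p 0.41), Apod (0.50), Pllp (0.31), Mboat1 (0.60), Cd9 (0.24) and Hapln2 (0.70, from means of 32.5 and 19.3). Apod is a secreted lipocalin, Pllp a membrane proteolipid of myelin and Hapln2 a link protein of the nodal matrix. Pearson's r with the mean of the members exceeded 0.9 for 14 of the 38 and was 0.83 at the median, but it was 0.12 for Apod and 0.16 for Mboat1. WT3 was the lowest mouse for 29 of the 38.

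Genes most like the members over the 10 mice were ranked by Pearson's r with the per-mouse mean of the 9 z-scores, among 13879 other genes with a mean of at least 50, and 8 of the first 10 are given here. They were 9630013A20Rik, a transcript that GENCODE annotates as antisense (r = 0.994), Fa2h and Ugt8a (0.988 each), Nipal4 (0.977), Tspan2 (0.974), Bfsp2 (0.959), Adamts4 (0.958) and Plekhh1 (0.957). Fa2h and Ugt8a make the hydroxylated and galactose-bearing lipids of myelin, and Tspan2 encodes a tetraspanin. The log2 fold changes of these 8 genes lay between 0.15 (Plekhh1) and 0.40 (Nipal4), and 0 of them passed adjustment (limma adjusted p 0.57 to 0.76).

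Genes of earlier lineage stages had a list level between -0.25 (WT3) and 0.16 (HT2) in the 10 mice, against -1.08 to 0.45 for the members. Pearson's r of these genes with the mean of the members ran from -0.69 to 0.90, with a median of 0.35. Averaging genes that differ in this way narrows the range of a list level, and single genes moved further. Of 25 genes of precursor and committed cells, 18 had a log2 fold change above 0 and 7 below, the median was 0.13, and 0 passed adjustment (limma). That median was 0.05 without HT2 and 0.04 without WT3, with 17 and 16 of the 25 above 0. At an unadjusted p under 0.05, 3 were higher and 0 lower in HT (4.71% and 4.52% of all tested genes), namely Itpr2 (0.23, SE 0.07), Vcan (0.25, SE 0.11) and Cspg4 (0.18, SE 0.08), with a smallest limma adjusted p of 0.46. Pdgfra, Gpr17 and Enpp6 did not pass and were picked for their place in the lineage after their values were seen. Pdgfra, the growth factor receptor of precursors, had counts of 3225, 4410, 3193, 3737 and 4387 in HT1 to HT5 and 3567, 3370, 3097, 3778 and 3359 in WT1 to WT5. WT3 was the lowest mouse for Pdgfra as well, but HT3 and HT1 lay close to it. Gpr17, a receptor of committed cells, had a log2 fold change of -0.06 (SE 0.09), and Enpp6, an enzyme of newly formed oligodendrocytes, 0.23 (SE 0.16). The count of Enpp6 was 479 in WT3 and 745 to 1031 in the other mice.

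Precursor level and myelin level were set side by side for each mouse, each as the mean log2 difference from the average of the 10 mice. In WT3 the 9 members stood at -1.08 and the precursor markers Pdgfra, Cspg4 and C1ql1 at -0.29. HT5 had members at -0.14 with precursor markers at 0.25, and WT4 had members at -0.31 with precursor markers at 0.04. HT2 and HT5 had the highest precursor levels (0.29 and 0.25) without the highest myelin levels, which belonged to HT3 (0.45) and WT2 (0.42), where precursor markers stood at -0.01.

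Regulators of oligodendrocyte differentiation had fold changes in both directions. Of 29 tested, 18 had a log2 fold change above 0 and 11 below, with a median of 0.05, and 0 passed adjustment (limma). Leaving out HT2 gave a median of 0.03 and leaving out WT3 gave 0.02, and without both it was -0.01, with 14 of 29 above 0. At an unadjusted p under 0.05, 4 were higher and 1 lower in HT, against 4.71% and 4.52% of all tested genes. The higher were Id4 (0.45, SE 0.11, limma adjusted p 0.36) and Id2 (0.14, SE 0.05), inhibitors of basic helix-loop-helix factors, Chd7 (0.49, SE 0.19), a chromatin remodeller, and Qk (0.18, SE 0.08), an RNA-binding protein needed for myelin transcripts. Zeb2, a transcription factor, was lower (-0.12, SE 0.05). Sox10, which acts upstream of Myrf and was picked after its values were seen, had a log2 fold change of 0.16 (SE 0.12) and was lowest in WT3, at 800 against 1059 to 1504 in the other mice. Several of these regulators are also made by other cell types, Id4 and Id2 by astrocytes among them. Some genes are shared between the mature, earlier-stage and regulator lists, Sox10 by all of them, so the counts of these lists are not independent.

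Markers of tissue next to the cortex also differed between mice. Of 9 striatal neuron markers, 8 had a log2 fold change above 0 and 0 passed adjustment or an unadjusted p under 0.05, with a median log2 fold change of 0.53, which was 0.24 without WT3. Their summed level ran from 7528 to 22863 in HT and from 6526 to 18044 in WT, and their mean log2 level was -1.15 in WT3, -1.04 in WT5 and -0.93 in HT5, against 0.21 to 0.81 in the other 7 mice. WT3, WT5 and HT5 are 3 of the 4 mice with the lowest myelin levels, while WT4 (myelin -0.31) had a striatal level of 0.52. Pearson's r of the single striatal markers with the mean of the members lay between 0.29 and 0.84. Its median was 0.74, against 0.28 for astrocyte and 0.26 for precursor markers. With the striatal level as a covariate the median log2 fold change of the members was 0.19, and 0 of 9 passed. Olfactory bulb markers, whose summed level ran from 862 to 3755 in HT and from 711 to 3613 in WT, were highest in HT2 (1.67) and WT4 (1.47), and with their level as a covariate the median was 0.53, 9 of 9 had an unadjusted p under 0.05 (7.71% of all genes) and 0 of 9 passed adjustment. Of the 7 olfactory bulb markers 7 had a log2 fold change above 0 (5 without HT2), and Trh, a neuropeptide precursor, had an unadjusted p under 0.05 (0.52, SE 0.14, limma adjusted p 0.41). Neither covariate was a term in the comparison as reported, and the part of neighbouring tissue in the myelin values was not tested beyond these fits.

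**Figure D4:**
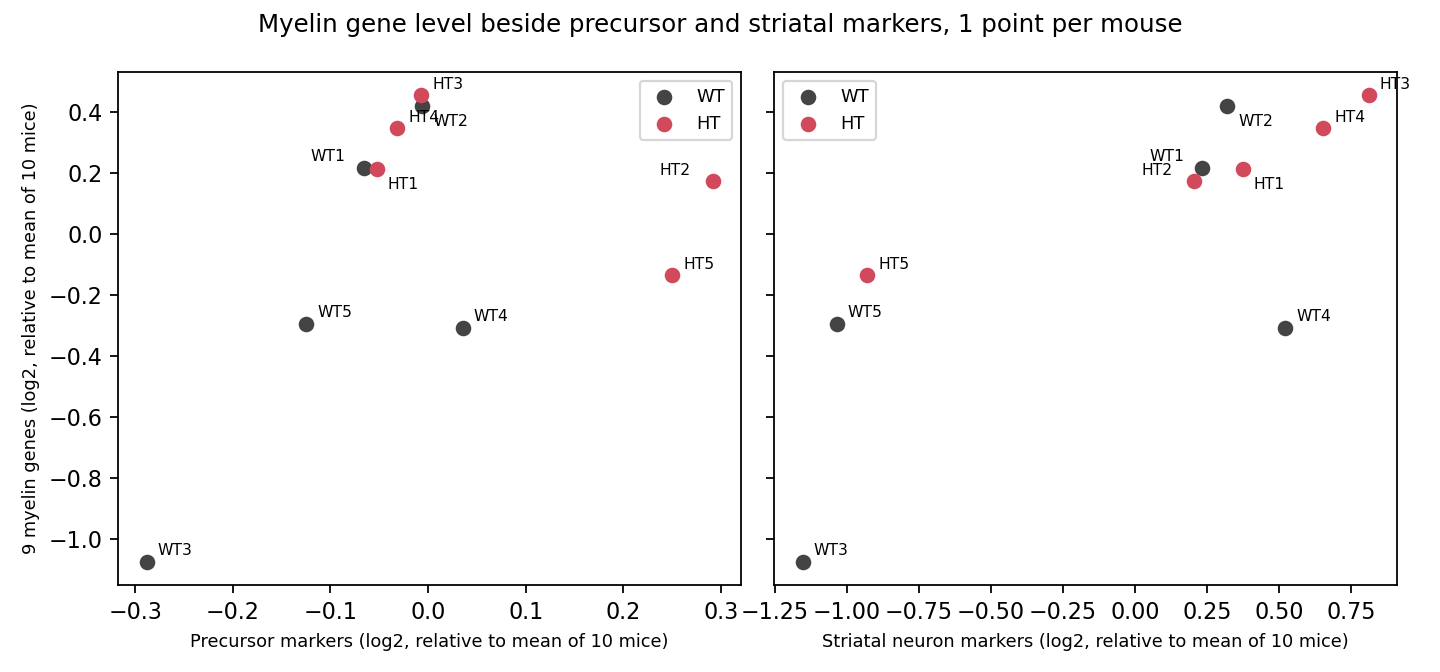
Mean log2 level of the 9 myelin genes for each mouse (vertical axis) beside that of 3 precursor markers (left) and 9 striatal neuron markers (right), all relative to the mean of the 10 mice, WT dark and HT red. WT3 is lowest on all axes, and WT4 has a low myelin level (-0.31) beside a high striatal level (0.52).

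Markers of other cell types were read in the same way, beside 48.8% of all tested genes with a log2 fold change above 0 and, at an unadjusted p under 0.05, 4.71% higher and 4.52% lower. Cortical excitatory neuron markers ranged in summed level from 55975 to 74712 in HT and from 63235 to 76716 in WT, with 74838 in WT3, and all 8 were detected in every mouse. Of these 8 markers, 3 had a log2 fold change above 0 and 5 below, with a median of -0.04. At an unadjusted p under 0.05, 2 were lower in HT, and without HT2 5 of the 8 were above 0. Fezf2 of this list, a transcription factor of deep-layer neurons, differed by -0.27 on the log2 scale (HT minus WT, SE 0.12) at a limma adjusted p of 0.51. None of the list passed adjustment. Astrocyte markers had summed levels of 156799 to 199846 in HT and 143025 to 169082 in WT, with log2 fold changes above 0 for 8 of 8, 5 of them at an unadjusted p under 0.05 and 0 past adjustment. Their list level was highest in HT5 (0.41) and HT2 (0.30), followed by HT4 (0.08). HT1 (-0.08) and HT3 (-0.13) lay within the WT range of -0.20 to -0.03. The log2 fold change was above 0 for 8 of 8 microglia markers (2 at an unadjusted p under 0.05), 5 of 6 endothelial markers, 4 of 7 meninges markers and 0 of 4 blood markers (1 lower at an unadjusted p under 0.05). Without HT2 it was above 0 for 3 of 6 endothelial and 2 of 7 meninges markers, and for 7 of 8 astrocyte and 8 of 8 microglia markers. Of the choroid plexus list 3 genes were tested, of which 1 was above 0 (2 without WT3), Clic6 (0.93, SE 0.36, limma adjusted p 0.50), at counts near the filter. Of 5 Schwann cell myelin genes tested, 4 had a log2 fold change above 0, their summed level ran from 652 to 1177, and Pearson's r of the single genes with the mean of the members lay between -0.27 and 0.30. No tested marker of these lists was at 0 in any mouse, and 0 of them passed adjustment. The part of these cell types in the myelin values was not tested.

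**Figure D5:**
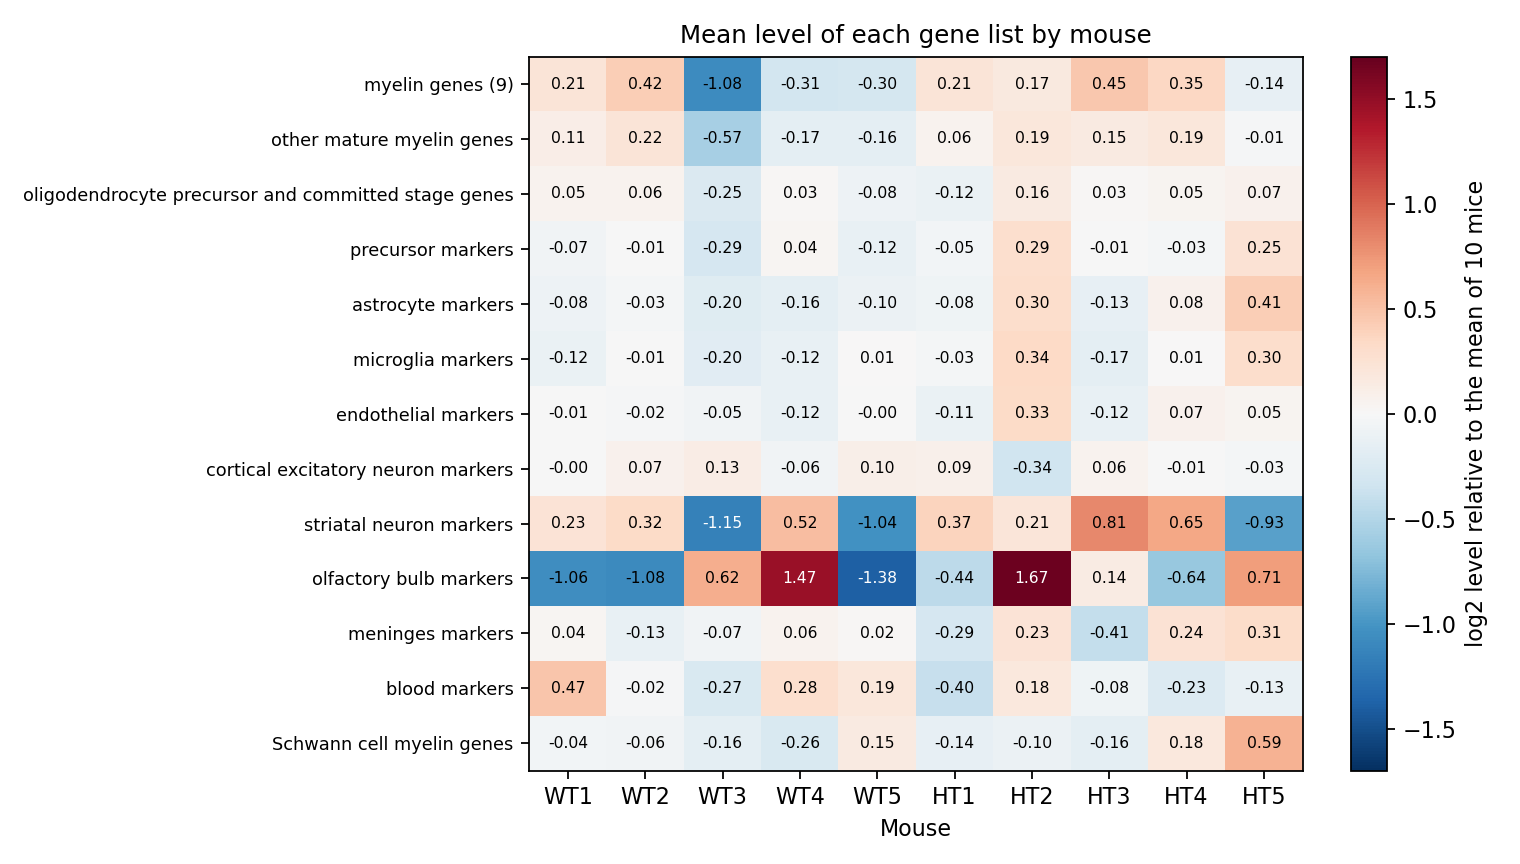
Mean log2 level of each gene list (rows) in each mouse (columns), relative to the mean of the 10 mice, from blue (low) to red (high). The row of the 9 myelin genes runs from -1.08 in WT3 to 0.45 in HT3, while the precursor markers stay between -0.29 and 0.29.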

How the data were processed

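RNA sequencing of the prefrontal cortex of 10 male mice (5 HT and 5 WT, from the sample titles) was used. As described by the authors, poly-A libraries made with a stranded kit were read in paired ends, Salmon 1.1.0 estimated transcript levels on GRCm38 with correction for GC bias, tximport summed them to genes, and DESeq2 1.30.1 size factors scaled them. The deposited signal is therefore a normalised count per gene and not whole reads, so no count test was run and depth is unknown. The lowest total of a row was 41.7, and the filter behind it is not given in the sources used here. Symbols, positions and exonic lengths came from GENCODE M21 (GRCm38), which held 18205 of the 18216 identifiers.

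Values were transformed as log2(value + 1), which understates changes of low genes. Genes with a mean of at least 10 were fitted with limma 3.58.1 in R 4.3.3 (lmFit, eBayes with trend, genotype as the only factor), with Benjamini-Hochberg adjustment over 16781 genes and a threshold of 0.05. The fit was tested on simulated data. The level of a list in a mouse is the mean over its tested genes of the log2 difference from the mean of the 10 mice. Python 3.11.15 with pandas 2.3.3 and matplotlib 3.10.9 was used for the rest. Members and lists were chosen with earlier results of these data known, and the named genes were the members, Arid1b, list genes at an unadjusted p under 0.05 and the 10 genes most like the members. Genes named outside this rule are marked as such. Some genes that the rule names are not reported here. Nothing in the labels gives litters or sequencing batches, so these could not be examined. Protein sequences were not used here. Alternatives are described in the closing section.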

Additional observations from a re-analysis of the deposited data

Results flagged for a closer look

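Within each group of 5 mice, 52 sets of values (10 genes and 16 gene lists in both groups) were searched for a mouse far from the others, by its gap to the nearest mouse divided by the range of the group, with a critical value of 0.71. 2 sets passed, where chance gives about 2.6.

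Mbp in HT5 had a normalised count of 29713, while HT1 to HT4 lay between 40313 and 43832, a ratio of 0.751. HT5 was also the lowest HT mouse for the other 8 members, though below the critical value. Its striatal marker level was -0.93 (HT1 to HT4: 0.21 to 0.81), and the part of this in the Mbp value was not tested.

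The level of cortical excitatory neuron markers in HT2 was -0.34, against -0.03 to 0.09 in the other HT mice, a ratio of 0.714. HT2 had a myelin level of 0.17, between those of HT5 and HT1, and without HT2 the median log2 fold change of the members was 0.41.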

How the results depend on the processing

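The fit was repeated with a pseudocount of 0.5 or 10, with the filter removed or raised to a mean of 50, with upper-quartile or quantile scaling, without the variance trend, with quality weights per mouse, with a replicate block, and with each mouse left out in turn. Leaving out both HT2 and WT3, and the striatal or olfactory bulb marker level as a covariate, were added after the data were seen. In all of them 0 of 9 members passed at an adjusted p under 0.05, 0 passed at 0.1, and all 9 log2 fold changes were above 0. The median log2 fold change of the members was 0.16 to 0.57 with 1 mouse left out and 0.18 to 0.53 under the other alternatives, the lowest of the latter without both HT2 and WT3. The members' limma adjusted p was 0.49 to 0.94 over all alternatives. Over all tested genes 3 passed, with 3 or 4 when 1 mouse was left out and under the other alternatives, and 1549 had an unadjusted p under 0.05. The Arid1b difference kept its direction and its call in each fit.

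The replicate numbers belong to different mice, and correlations of deviations between same-numbered mice ran from -0.04 to 0.10. Their mean was 0.04, against -0.01 between mice of other numbers, and 5 of 10 mice correlated best with the mouse of their own number. With the replicate block the median of the members was 0.39, 2 of 9 had an unadjusted p under 0.05 (1508 of all 16781 tested genes) and 0 passed adjustment. The values carry no read depth, so counting error could not be separated from the spread between mice.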
